A study of Leymus chinensis with 14 samples.

Results

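Calcium and mitogen-activated protein (MAP) kinase signalling genes were followed in leaf RNA of the forage grass Leymus chinensis (sheepgrass) across salt and light treatments. The set holds 192 loci of the authors' transcript assembly, out of 28589 loci left once those with a fungal best match were set aside. A locus entered when the first full name that Swiss-Prot gives for at least 1 of its transcripts contains the name of a calcium sensor, a calcium-regulated kinase, a calcium channel or pump, a MAP kinase or an annexin. Of the 192 loci, 179 reached a value of 1 in 2 or more libraries and were tested. The 13 loci below that level averaged 0.0298 to 0.629 over the libraries, and 4 of them are glutamate receptors.

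Leaves came from plants 3 weeks old on half-strength MS medium, a standard mineral culture medium. The 14 libraries form 5 groups: normal light with the "ck" label (called check here), low salt or high salt, and low light with check or high salt. Each group has 3 libraries except low light with high salt, which has 2. The labels give neither the salt used and its concentration, nor the light levels or the time under them, nor a cultivar, and they mention rice leaves in the extraction step. They do not say that libraries of a group came from separate plants. The spread behind each p-value is that between these libraries and may be technical.

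Plant cells answer salt, drought and changes in light with brief rises of calcium in the cytosol. Channels such as glutamate receptor-like and cyclic nucleotide-gated channels let calcium in, and calcium ATPases and exchangers pump it out. Calmodulins, calmodulin-like proteins and calcineurin B-like proteins (CBLs) bind the ion through EF-hands, and calcium-dependent protein kinases (CDPKs) or CBL-interacting protein kinases (CIPKs) pass the signal on by phosphorylation. MAP kinases are the last tier of a 3-step cascade in which a MAPKKK activates a MAPKK and the MAPKK activates a MAPK. In Arabidopsis and rice the CBL4 and CIPK24 pair (SOS3 and SOS2) activates the plasma membrane sodium/proton exchanger SOS1, which moves sodium out of the cell.

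The domains found by the authors' annotation were checked against the names. All 20 calmodulin and calmodulin-like loci and 9 of 10 CBL loci carried an EF-hand, and all 7 annexins carried the annexin repeat. A protein kinase domain was annotated in 20 of 23 CIPKs, 15 of 21 CDPKs, 13 of 15 MAPKs, 5 of 7 MAPKKs and 8 of 9 MAPKKKs. Domains that set classes apart were annotated less often, with the CIPK regulatory NAF domain in 2 of 23 CIPKs, an EF-hand in 6 of 21 CDPKs and the ligand-gated channel domain in 4 of 15 glutamate receptors. An ion transport domain was annotated in 8 of 16 cyclic nucleotide-gated channels and the E1-E2 ATPase domain in 11 of 15 calcium ATPases, and these classes rest on their best match where the domain is missing. Membrane helices were predicted in 10 of 15 calcium ATPases, 11 of 15 glutamate receptors and 9 of 16 cyclic nucleotide-gated channels. The largest class was the calmodulin-binding and calmodulin-regulated proteins with 34 loci. No locus is named OSCA (the hyperosmolality-gated calcium channels), which Swiss-Prot lists under other names. Names are matches in other species, with a median identity of 67.1% over the members, and 132 of the 192 members share their name with another locus. Such copies may share reads, so the split between them is uncertain.

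In 27 of the tested members the transcripts that carry the signalling name made up less than 50% of the summed value of the locus. The rest of such a sum came from transcripts with another name or none. Values are therefore given for the whole locus, and for the matching transcripts alone where the 2 differ. The matching transcripts alone were tested on the deposited values only, without rescaling.

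The libraries summed to between 470162 and 581690 in a unit that the table does not name, and 10.3% to 18.5% of transcripts stood at 0 in a library. Correlation between replicates of a group ran from 0.846 to 0.953. The median locus was higher in all treated groups than in check at normal light, by 0.29 on the log2 scale with high salt and by 0.34 with low light. Rescaling each library so that the median locus is level (median-of-ratios scaling) brought both medians to 0.03, and results that depend on this choice are marked. Leaf mesophyll markers were abundant, and the summed values of 90 loci (Rubisco small chain and activase, light-harvesting and photosystem proteins) ran from 84317 to 120226 in check at normal light. They ran from 53371 to 83043 with high salt, from 56377 to 59713 with low light, and from 43587 to 80654 with both. The 6 loci on a root list summed to between 128 and 346, most of it silicon efflux transporters, with no locus named for the Casparian strip. These shifts move with the treatments compared below, and their part in the results was not tested. In whole leaves, fewer cells of a type and less RNA per cell cannot be told apart.

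High salt at normal light gave few calls among the signalling genes. Of 179 members tested, 5 rose and 1 fell (3.35%), against 4.02% of all 20371 loci tested (3.03% higher and 0.982% lower). In 39 members every high-salt library lay above every check library and in 11 every one lay below, which is 21.8% and 6.15% beside 23.9% and 6.58% over all loci. The members' median log2 change was 0.14 and that of all loci was 0.29. The 6 are a MAP kinase kinase, 2 calmodulins, a MAP kinase, an annexin and a glutamate receptor. No CDPK, CIPK, CBL, calcium ATPase, cyclic nucleotide-gated channel or MAPKKK was called. Changes are differences of mean log2(value + 1), tested with limma, and so are too small for loci with low values.

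The locus that fell with high salt was g23751, named MAP kinase kinase 2, an enzyme that in Arabidopsis takes part in cold and salt signalling. Its values were 19.3, 17.1 and 14.9 in the 3 check libraries. They were 13.3, 12.5 and 12.7 with low salt and 6.05, 5.60 and 6.21 with high salt. The 3 groups did not overlap, with low salt between check and high salt. With high salt the log2 change was -1.37 (SE 0.24, adjusted p = 0.022). Median-of-ratios scaling made it -1.73 (adjusted p = 0.0076). Low salt against check gave -0.38 (adjusted p = 0.56), and high against low salt gave -0.99 (adjusted p = 0.20). At low light the values were 20.5, 10.4 and 10.8 without added salt and 8.52 and 7.65 with high salt. The groups at low light did not overlap either, and the difference of -0.65 there was not called (adjusted p = 0.54). Of the other 6 MAPKK loci none was called in any of the 8 comparisons as deposited.

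The 2 calmodulin loci that rose with high salt also stood at intermediate levels with low salt. Locus g21093, named calmodulin, the small 4-EF-hand protein that activates many enzymes when it binds calcium, had 21.6, 27.4 and 24.3 in check. It had 41.7, 40.5 and 40.0 with low salt and 54.0, 55.5 and 41.5 with high salt. Every salt library lay above every check library, and low and high salt overlapped. The log2 change with high salt was 1.01 (SE 0.22, adjusted p = 0.036), and with low salt it was 0.72 (adjusted p = 0.23). Locus g17457, named putative calmodulin-3 after an entry that Swiss-Prot marks as a putative pseudogene, had 38.5, 43.1 and 48.2 in check. It had 58.5, 59.3 and 77.1 with low salt and 92.9, 90.8 and 85.9 with high salt, without overlap between the 3 groups. Its log2 change was 1.04 with high salt (SE 0.20, adjusted p = 0.025) and 0.57 with low salt (adjusted p = 0.28). After median-of-ratios scaling the high-salt changes were 0.63 and 0.66 and neither was called (adjusted p = 0.16 and 0.072).

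Over the 17 calmodulin and calmodulin-like loci tested, 2 rose with high salt and none fell (3.03% higher and 0.982% lower over all loci). The median log2 change was 0.35, beside 0.29 over all loci. After median-of-ratios scaling none was called and the median was 0.08, beside 0.03. In 6 of the 17 every high-salt library lay above every check library, and in none did every one lie below (23.9% and 6.58% over all loci). The class as a whole summed to 391 ± 31.8 in check, 517 ± 64.1 with low salt and 563 ± 34.7 with high salt (SD, n = 3 each). It summed to 560.0 ± 45.3 at low light and to 588 ± 63.2 (SD, n = 2) at low light with high salt. As deposited, check at normal light lay below the other 4 groups, which overlapped with each other. After median-of-ratios scaling this no longer held, with 450.0 to 500.0 in check and 420.0 to 538 at low light.

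**Figure D1:**
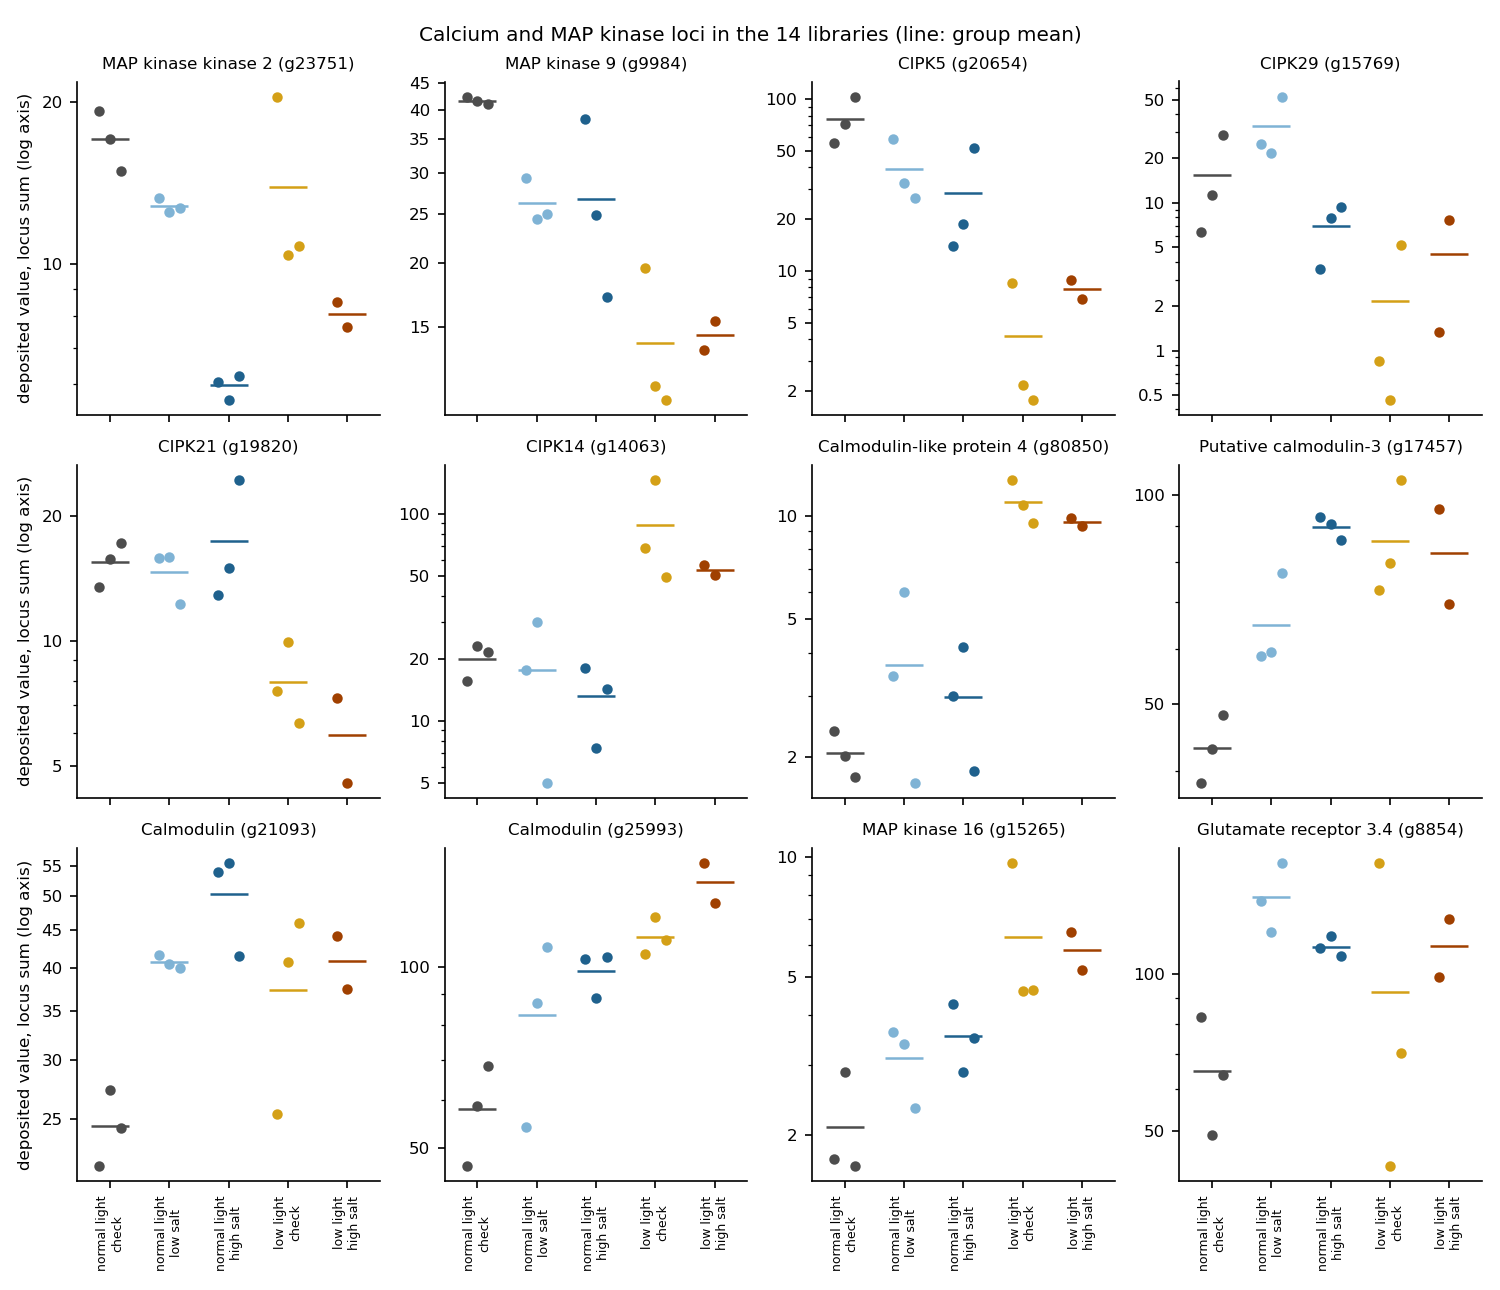
Deposited values of 12 members in each of the 14 libraries, on log axes, with points in replicate order and a line at the group mean. MAP kinase kinase 2 sits lowest with high salt at normal light (5.60 to 6.21), calmodulin-like protein 4 sits at 9.31 to 12.7 in all low-light libraries and at 5.99 or less in the others, and CIPK5 runs from 55.3 to 103 in check down to 1.78 to 8.52 at low light.

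The channel that rose with high salt was g89073, named glutamate receptor 3.3, a channel that in Arabidopsis takes part in long-distance wound signals. It is a rare transcript, with 0.0633, 0.105 and 0.360 in check, 1.05, 1.24 and 0.269 with low salt and 4.66, 1.27 and 1.60 with high salt. All high-salt libraries lay above check and above low salt. The log2 change was 1.46 (SE 0.37, adjusted p = 0.047), and it was no longer called after median-of-ratios scaling (1.35, adjusted p = 0.064). Among the 11 glutamate receptor loci tested this was the only call, against 4.02% of all loci called. In 5 of the 11 the high-salt libraries all lay above check, against 23.9% of all loci. The class median was 0.59 as deposited and 0.40 after median-of-ratios scaling, beside 0.29 and 0.03 over all loci.

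Glutamate receptor 3.4 (g8854) carried most of the summed glutamate receptor value. It had 82.6, 49.0 and 63.8 in check, 138, 120.0 and 163 with low salt and 112, 118 and 108 with high salt. Both salt groups lay wholly above check, by 1.12 with low salt (SE 0.38, adjusted p = 0.27) and 0.81 with high salt (SE 0.38, adjusted p = 0.22), and neither difference was called. Its low-light check libraries were spread from 42.8 to 163. The other tested receptors had log2 changes with high salt between -0.16 and 1.52.

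Annexins, proteins that bind membrane lipids in a calcium-dependent way, had the highest class median with high salt, 1.43 over 7 loci as deposited and 1.07 after median-of-ratios scaling. As deposited 1 of the 7 rose, and after the scaling none rose and 1 fell. Over all loci 3.03% rose as deposited, and 0.766% rose and 2.05% fell after the scaling. Locus g20499, named annexin D3, had 7.59, 11.8 and 9.31 in check, 18.1, 19.2 and 19.7 with low salt and 35.1, 33.5 and 17 with high salt. Low and high salt lay above check and overlapped with each other. The log2 change with high salt was 1.43 (SE 0.34, adjusted p = 0.042), or 1.07 with median-of-ratios scaling (adjusted p = 0.11). The annexin transcripts made up 38.1% of this locus, which also holds transcripts named for a mitochondrial fission protein. Taken alone they had 2.72, 3.34 and 2.66 in check and 15.3, 14.3 and 7.77 with high salt, a log2 change of 1.73 (adjusted p = 0.022).

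Annexins D1 (g15007), D2 (g24531) and D6 (g24432) had log2 changes of 1.57, 1.59 and 1.69 with high salt, and none passed the test (adjusted p = 0.11, 0.11 and 0.088). Annexin D1 had 6.55, 8.13 and 3.55 in check and 25.7, 11.9 and 22.7 with high salt. Annexin D2 had 1.42, 4.56 and 1.54 in check and 10.1, 6.76 and 9.75 with high salt. In all 3 the high-salt libraries lay above check. Annexin D5 (g21427), at 93.9 to 110.0 in check and 70.8 to 101 with high salt, had a change of -0.25 (adjusted p = 0.42). After median-of-ratios scaling that change became -0.64 and was called (adjusted p = 0.046). Annexins D1 and D2 were singled out after their values were seen.

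The remaining locus that rose was g2496, named MAP kinase 11 after a rice kinase. Its locus values were 25.1, 26.9 and 20.9 in check, 32.4, 35.1 and 41.7 with low salt and 56.6, 37.3 and 46.4 with high salt, for a log2 change of 0.91 with high salt (SE 0.20, adjusted p = 0.037). Both salt groups lay above check. Kinase transcripts made up 34.7% of the locus, which also holds transcripts named for a transposon polyprotein. The kinase transcripts alone gave 0.44 (adjusted p = 0.46), so the call at high salt did not hold for them.

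The high-salt calls changed with single libraries. Leaving out check replicate 1 or 3, or high-salt replicate 1 or 2, left no member called, and leaving out either high-salt library at low light left 2, so the count ran from 0 to 8. In a fit of the 2 groups alone 2 members were called. After median-of-ratios scaling none rose and 4 fell, against 2.82% of all loci called (0.766% higher and 2.05% lower). The 4 were MAP kinase kinase 2, annexin D5, CDPK13 (g15431, from -0.66 as deposited to -1.04, adjusted p = 0.047) and calmodulin-binding protein 60 B (g13138, from -0.64 to -0.99, adjusted p = 0.039). In g13138 the matching transcripts made up 25.1% of the locus. Other loci with large changes were CDPK16 (g19034), at 4.12, 3.10 and 2.49 in check and 18.3, 11.0 and 4.44 with high salt (1.37, adjusted p = 0.17), and plasma membrane-type ATPase 5 (g15520), at 11.6, 10.1 and 11.8 and then 18.3, 20.5 and 22.6 (0.82, adjusted p = 0.18). CBL9 at g26577 had 3.67, 4.4 and 2.36 and then 5.05, 9.27 and 6.41 (0.81, adjusted p = 0.20). In all 3 the high-salt libraries lay above check, and none was called.

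Low salt gave no member that passed the test with limma, while 19 of 179 were under an unadjusted p of 0.05. The background was 0.0884% of all loci called. The members' median change was 0.14 beside 0.13 over all loci. In 22 members every low-salt library lay above every check library and in 13 every one lay below, which is 12.3% and 7.26% beside 14.1% and 6.06% over all loci. High against low salt gave no call among the members either (background 0.0491%), with 15 members under an unadjusted p of 0.05.

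Low light without added salt gave more calls, 21 of 179 members (11.7%), against 15.1% of all loci (10.8% higher and 4.33% lower). In 40 members the low-light libraries all lay above check and in 21 all below (22.3% and 11.7%, beside 25.9% and 8.32% over all loci). Of the 21 called members 14 rose and 7 fell, and in 5 of the called loci the matching transcripts are the minority. The members' median log2 change was 0.29, beside 0.34 over all loci. Among the called members, 4 of 5 CIPKs fell, all 4 calmodulin and calmodulin-like loci rose, and MAP kinases went both ways. High salt and low light were each compared with the same 3 check libraries at normal light, so their changes are not independent.

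CIPKs, the kinases that CBL sensors recruit to membranes, gave 4 loci that fell and 1 that rose among 22 tested. Over all loci 4.33% were called lower and 10.8% higher. The CIPK median log2 change was -0.37 as deposited and -0.68 after median-of-ratios scaling, beside 0.34 and 0.03 over all loci. After that scaling 5 fell and none rose, beside 7.13% lower and 3.57% higher over all loci.

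The CIPK with the largest change was g20654, named CIPK5. It had 55.3, 71.5 and 103 in check at normal light and 8.52, 2.18 and 1.78 at low light, with no overlap. The log2 change was -4.10 (SE 0.54, adjusted p = 0.0016), and it was called under each of the 23 alternatives run. With high salt at normal light the values were 14, 18.6 and 52.1, all below check, for a change of -1.59 that was not called (adjusted p = 0.11). At low light with high salt they were 8.86 and 6.82, which overlap with the low-light libraries without added salt. The high-salt difference there was 1.00 (adjusted p = 0.79), and the interaction of light and salt was 2.59 (adjusted p = 0.19).

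Locus g15769, named CIPK29, had 6.34, 11.3 and 28.8 in check and 0.846, 0.466 and 5.22 at low light. The groups did not overlap, and the change was -2.44 (SE 0.69, adjusted p = 0.035). It was lost when check replicate 2 or 3 or low-light replicate 1 or 2 was left out. Of the 4 other loci with that name none was called, with changes of -1.14 to -2.17. They are given after their values were seen. All 5 had their lowest values of the low-light check group in replicate 2 and their highest in replicate 3, which for g25752 was 0.18 and 8.0. Replicate 1 of low light with high salt was below replicate 2 in all 5. With low salt g15769 had 25.0, 21.8 and 52.4, against 3.56, 7.92 and 9.43 with high salt, a difference of -2.07 between the 2 salt levels (adjusted p = 0.32).

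**Figure D2:**
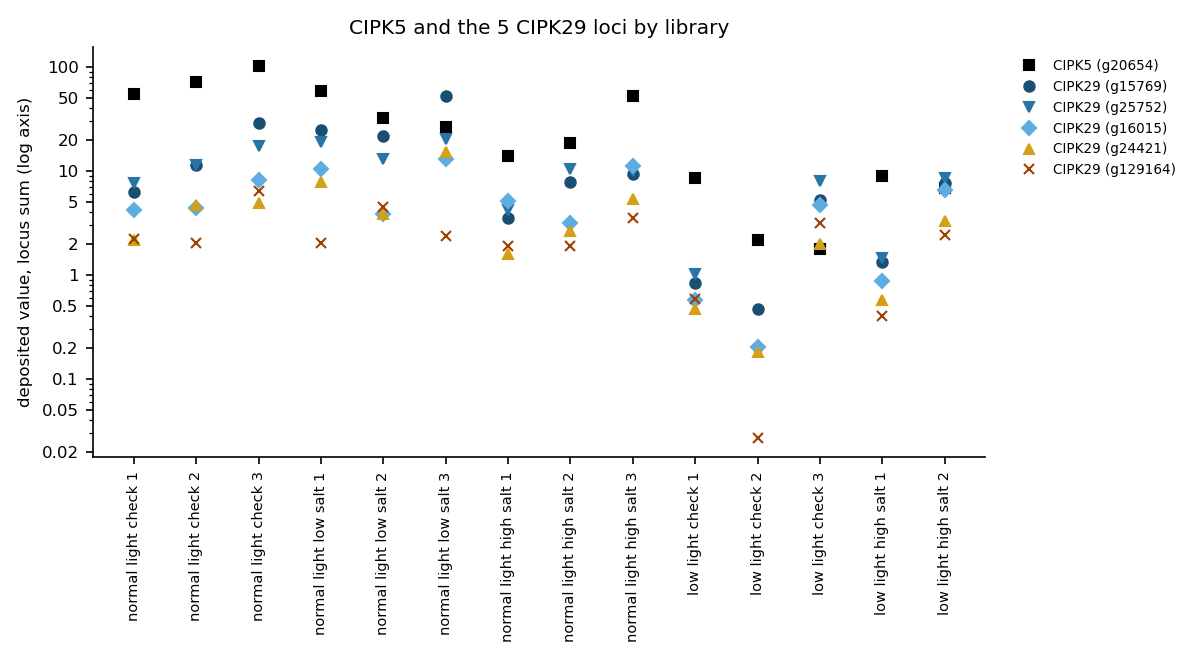
Deposited values of CIPK5 and the 5 loci named CIPK29 in each library, on a log axis, 1 symbol per locus. CIPK5 stands at 55.3 to 103 in check at normal light and at 8.86 or less in all low-light libraries, while the CIPK29 loci go up and down together between libraries of the low-light groups.

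CIPK17 (g1519) and CIPK21 (g19820) also fell. CIPK17 had 152, 125 and 178 in check and 83.4, 103 and 79.5 at low light (log2 change -0.76, SE 0.20, adjusted p = 0.028). CIPK21 had 13.5, 15.7 and 17.2 in check and 7.57, 9.93 and 6.35 at low light (-0.89, SE 0.27, adjusted p = 0.042). In both the groups did not overlap. The low-light call of CIPK17 was kept in 17 of the 23 alternatives and that of CIPK21 in 10. The CIPK21 call was lost without any 1 of the 3 check libraries. CIPK21 was also low with both treatments, at 7.30 and 4.56 (-1.27, adjusted p = 0.024), while at normal light its high-salt libraries, 12.9, 15.0 and 24.4, overlapped with check.

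CIPK14 (g14063) was the one CIPK that rose. It had 15.5, 22.9 and 21.5 in check and 68.3, 146 and 49.4 at low light, a change of 1.95 (SE 0.55, adjusted p = 0.035). The 2 libraries with both treatments stood at 56.8 and 50.7, and all low-light libraries lay above all normal-light ones. The call was lost without any 1 of the 3 check libraries, without low-light replicate 1 or 2, and after median-of-ratios scaling (1.49, adjusted p = 0.12). The second locus named CIPK14 (g17770) had a change of 0.22 (adjusted p = 0.82).

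The kinases and sensors named for the SOS pathway did not pass the test, and were looked up after values were seen. The 4 loci named CIPK24 had log2 changes of -0.15 to 0.13 with high salt and -0.44 to 0.12 with low light. The one with the highest mean, g14881, had 7.28, 10.3 and 9.57 in check and 12.6, 8.05 and 9.51 with high salt, which overlap. Of the 3 loci named CBL4, g82216 had 1.29, 1.97 and 0.599 in check and 0.0548, 0.240 and 0.138 with high salt, without overlap (-0.96, adjusted p = 0.078). Neither of the others with that name, g16020 and g8267, was called. Their whole-locus changes were positive, while the CBL transcripts of g8267 alone, the minority there, had a negative one. Besides CIPK24 and CBL4, the 2 loci named CIPK31, g90422 and g93409, had every high-salt library above check and changes of 1.36 and 1.09. Neither was called as deposited (adjusted p = 0.070 and 0.052) or after median-of-ratios scaling.

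CBLs, the sensors of the CIPKs, gave 1 call at low light among 10 tested, against 15.1% of all loci called. It was g14066, named CBL6 (0.64, adjusted p = 0.033), and it was not called after median-of-ratios scaling. CBL transcripts made up 14.9% of that locus and alone gave 0.33 (adjusted p = 0.38). CBL10 (g81049) had 2.77, 3.49 and 6.59 in check and 1.5, 1.97 and 1.70 at low light. The groups did not overlap, and the change of -0.89 missed the threshold (adjusted p = 0.065). After median-of-ratios scaling CBL10 and CBL9 (g17722) were called lower, at -1.24 and -1.12 (adjusted p = 0.020 and 0.029). The CBL locus with the highest mean, CBL3 (g8657), ran from 42.3 to 53.1 in check and from 50.1 to 96.7 at low light, which overlap.

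Calmodulin and calmodulin-like loci rose in 4 cases of 17 at low light and fell in none as deposited, with a median of 0.56 (10.8% higher and 4.33% lower over all loci, with a median of 0.34). After median-of-ratios scaling 1 was called higher and 1 lower, CML7 (g23192), and the median was 0.10. Calmodulin-like protein 4 (g80850) had 2.38, 2.01 and 1.75 in check and 12.7, 10.7 and 9.50 at low light. With high salt added at low light it had 9.87 and 9.31, and no normal-light library exceeded 5.99. The low-light change was 1.97 (SE 0.34, adjusted p = 0.0039) and was called under each of the 23 alternatives. High salt at normal light gave 2.99, 4.15 and 1.82, which overlap with check (0.35, adjusted p = 0.56).

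The second calmodulin locus, g25993, had 46.6, 58.7 and 68.3 in check, 105, 121 and 111 at low light, and 149 and 128 with both treatments. All low-light libraries lay above check, and the change was 0.96 (SE 0.24, adjusted p = 0.022). High salt at normal light gave 103, 88.6 and 104, also above check, at 0.77 (adjusted p = 0.088). Calmodulin-3 (g17457) rose by 0.96 (adjusted p = 0.0091) and CML13 (g94170), a calmodulin-like protein, by 0.86 (adjusted p = 0.033). After median-of-ratios scaling calmodulin-like protein 4 remained called (1.60, adjusted p = 0.015), while g25993, calmodulin-3 and CML13 were not, at 0.49, 0.49 and 0.41.

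Among calmodulin-binding and calmodulin-regulated proteins, calmodulin-binding protein 60 B (g9617), of a family of plant transcription regulators, was the 1 call of 33. It had 59.2, 78.9 and 77.8 in check and 160.0, 99.2 and 114 at low light (0.77, SE 0.22, adjusted p = 0.037). Among 20 CDPKs, which join an EF-hand sensor and a kinase in 1 protein, CDPK24 (g26726) was the 1 call. Its values were 10, 18.5 and 13.9 in check and 31.7, 27.0 and 30.3 at low light (1.05, SE 0.27, adjusted p = 0.025). Over all loci 15.1% were called at low light. Neither g9617 nor g26726 was called after median-of-ratios scaling. The calmodulin-binding locus with the highest mean, calmodulin-binding protein 60 C (g203), ran from 240.0 to 394, but its matching transcripts were 0.203% of it. The CDPK locus with the highest mean, CDPK13 (g15431), had 37.0 to 71.2 in check and 46.1 to 65.0 at low light and did not separate.

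Of 15 cyclic nucleotide-gated channels, cation channels with a calmodulin-binding tail, 2 rose and 1 fell at low light. Over all loci 10.8% were called higher and 4.33% lower. CNGC17 (g24287) had 4.23, 8.52 and 5.58 in check and 12.4, 11.6 and 11.7 at low light (0.90, SE 0.24, adjusted p = 0.030). CNGC14 (g17628) had 8.46, 11.2 and 9.13 and then 13.4, 18.8 and 19.1 (0.76, SE 0.23, adjusted p = 0.047), and its matching transcripts alone gave 0.73 (adjusted p = 0.062). CNGC15 (g15604) had 11.1, 8.09 and 10.7 and then 5.81, 2.23 and 3.51 (-1.23, SE 0.38, adjusted p = 0.049). None of the 3 pairs of groups overlapped. After median-of-ratios scaling CNGC15 was called lower, and CNGC17 at g24287 and CNGC14 were not called. The CNGC15 and CNGC14 calls were kept in only 6 and 7 of the 23 alternatives. Each was lost without any 1 of the 3 check libraries. The channel with the highest mean, CNGC17 at g919, had 28.3, 28.7 and 37.7 in check and 26.7, 21.1 and 27.3 at low light (-0.32, adjusted p = 0.28, and -0.78 with adjusted p = 0.015 after the scaling). No glutamate receptor was called at low light.

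Calcium ATPases, which pump calcium into the endoplasmic reticulum or out of the cell, gave 1 call of 13, against 15.1% of all loci. It was g1586, named endoplasmic reticulum-type ATPase 3, with 87.7, 76.4 and 135 in check and 55.7, 46.3 and 35.7 at low light (-1.08, SE 0.27, adjusted p = 0.020). ATPase transcripts were 8.89% of that locus, and the locus also holds beta-glucosidase transcripts. The ATPase transcripts alone had 7.03, 6.54 and 5.31 in check and 15.0, 8.46 and 8.12 at low light, which reversed the change to 0.62 (adjusted p = 0.28). The fall of the locus was not one of the ATPase transcripts. Endoplasmic reticulum-type ATPase 1 (g14971) had 20.3, 30.4 and 25.4 in check and 13.5, 13.8 and 20.2 at low light (-0.65, adjusted p = 0.10), and was called lower after median-of-ratios scaling (-1.11, adjusted p = 0.0094).

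**Figure D3:**
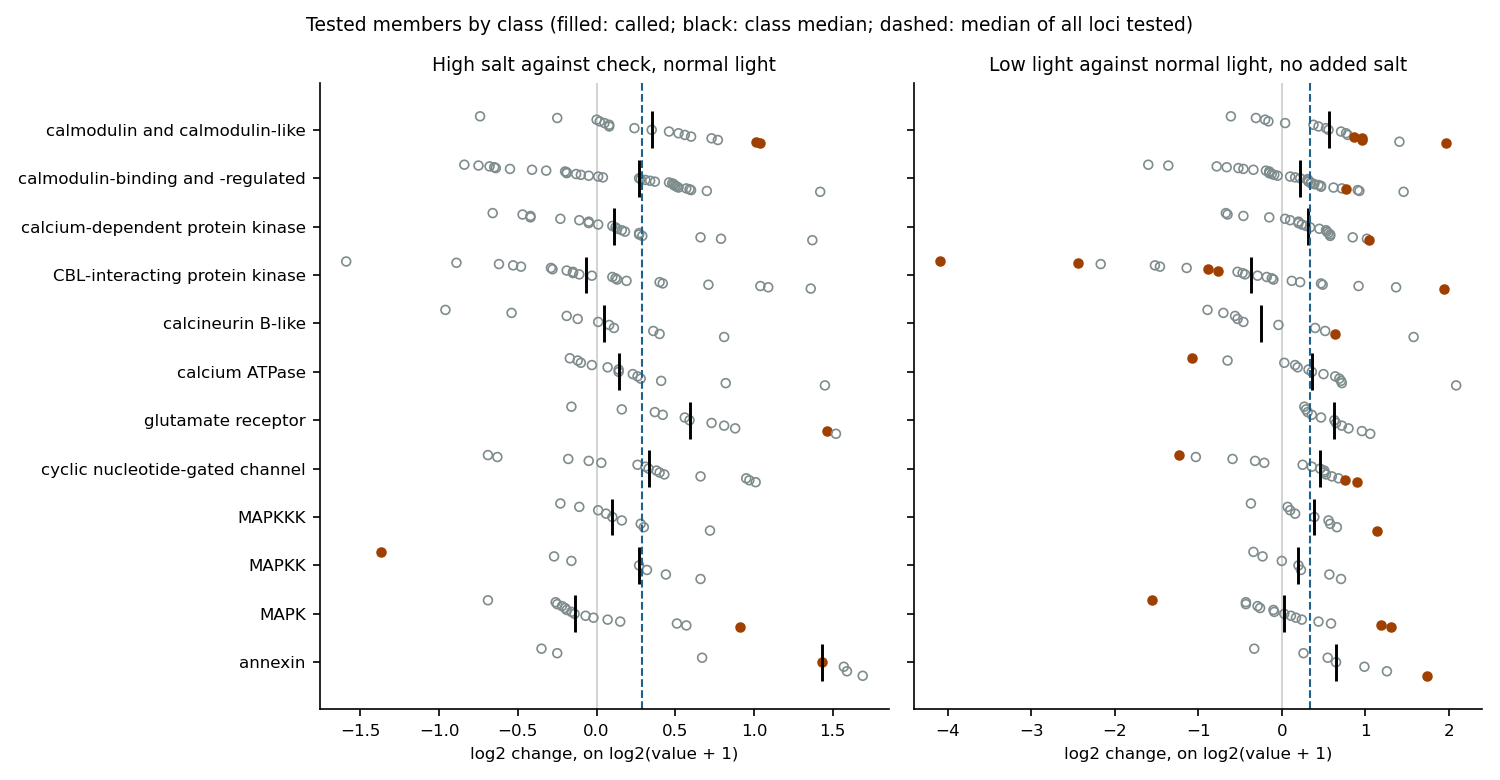
Log2 change of each of the 179 tested members by class, for high salt at normal light and for low light without added salt, with called members filled, a black line at the class median and a dashed line at the median of all loci tested (0.29 and 0.34). With high salt the annexin median is 1.43, and at low light the CIPK median is -0.37.

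In the MAP kinase tiers, 2 MAPKs rose and 1 fell among 15 at low light (10.8% higher and 4.33% lower over all loci). MAP kinase 9 (g9984), named after a rice kinase, had 42.4, 41.6 and 41.0 in check and 19.6, 11.5 and 10.8 at low light. It had 13.5 and 15.4 with high salt at low light, and 29.4, 24.4 and 25.0 with low salt at normal light. All other groups lay below check, and the low-light change of -1.56 (SE 0.28, adjusted p = 0.0047) was called under each of the 23 alternatives. With high salt at normal light the values were spread, at 38.3, 24.8 and 17.2 (-0.69, adjusted p = 0.16).

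MAP kinase 16 (g15265) had 1.74, 2.87 and 1.67 in check and 9.66, 4.61 and 4.62 at low light. The groups did not overlap, and the change was 1.19 (SE 0.30, adjusted p = 0.022). It was not called after median-of-ratios scaling (0.83, adjusted p = 0.082). The MAP kinase 11 locus (g2496) had 68.2, 52.0 and 65.6 at low light and rose by 1.31 (adjusted p = 0.0026) against check. Its kinase transcripts alone had 10.4, 8.98 and 9.57 in check and 36.5, 13.8 and 20 at low light, a rise of 1.10 (adjusted p = 0.048).

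The loci named MAP kinase 3 and MAP kinase 6 were not called in either comparison. MAP kinase 3 (g22420) had 70.6, 60.8 and 76.9 in check, 64.6, 59.8 and 63.4 with high salt and 57.5, 68.0 and 70.3 at low light, with changes of -0.14 and -0.09 (adjusted p = 0.64 and 0.75). MAP kinase 6 (g14127), singled out after its values were seen, had 23.9, 26.7 and 28.2 in check and 51.3, 36.8 and 33.4 at low light. These did not overlap, and the change of 0.59 was not called (adjusted p = 0.13).

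The MAPKK with the highest mean, g877 named MAP kinase kinase 1, had 53.4, 67.2 and 53.0 in check and 86.3, 98.8 and 74.6 at low light (0.57, adjusted p = 0.15). Its kinase transcripts, 60.8% of the locus beside disease resistance names, had 29.6, 33.3 and 29.3 in check. At low light they had 56.9, 55.6 and 66.5. Taken alone they rose by 0.93 (adjusted p = 0.0040), and they were not tested after median-of-ratios scaling. Both pairs of groups were without overlap.

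The MAPKKK that rose at low light, g1, is named MAPKKK5 through 1 of its 16 transcripts. That transcript made up 3.31% of the locus, which also holds transcripts named disease resistance protein RGA5. The locus had 44.0, 50.6 and 41.5 in check and 113, 90.1 and 100 at low light (1.14, SE 0.20, adjusted p = 0.0043), while the kinase transcript had 1.82, 1.08 and 2.11 and then 4.11, 2.42 and 5.25 (0.86, adjusted p = 0.11). Both pairs of groups were without overlap.

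The annexin D3 locus had 29, 24.7 and 54.5 at low light and rose by 1.74 (SE 0.34, adjusted p = 0.0069), called under each of the 23 alternatives. Its annexin transcripts alone had 8.58, 11.5 and 19.5, a rise of 1.79 (adjusted p = 0.0040). Annexin D1, at 1.68, 3.29 and 12.7, overlapped with check (-0.33, adjusted p = 0.71).

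**Figure D4:**
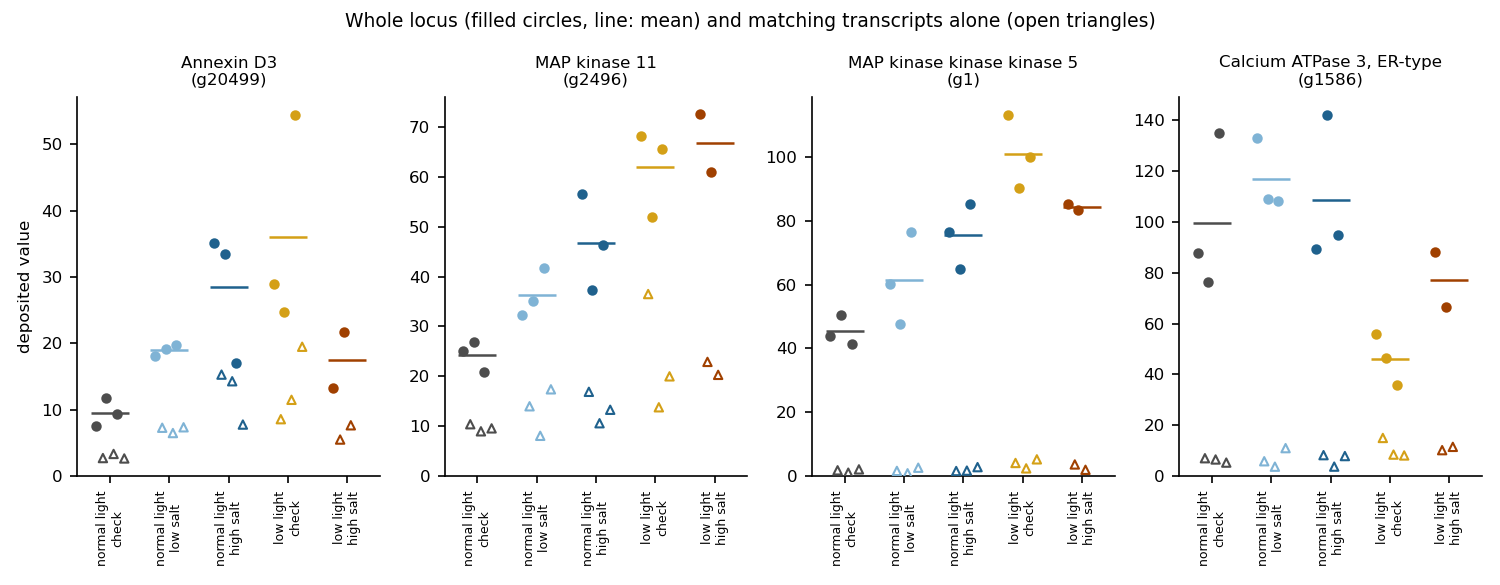
Deposited values per library, on linear axes, of 4 loci in which the signalling transcripts are the minority, for the whole locus (filled circles, line at the mean) and for the matching transcripts alone (open triangles). For annexin D3 both go up with high salt at normal light and with low light, for calcium ATPase 3 the whole locus is at 35.7 to 55.7 at low light while its own transcripts are at 8.12 to 15.0, against 5.31 to 7.03 in check.

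Of the low-light calls, all 7 loci that fell and 4 of the 14 that rose were also called after median-of-ratios scaling, and 13 further members were called only then. The split of rises and falls thus moved from 14 and 7 to 4 and 20, against a background of 10.7% called (3.57% higher and 7.13% lower). The 4 rises were calmodulin-like protein 4 and the annexin D3, MAP kinase 11 and MAPKKK5 loci. In all of these but calmodulin-like protein 4 the matching transcripts are the minority. The count as deposited ran from 8 to 21 when single libraries were left out. The lowest counts came without check replicate 1 (8), check replicate 3 (10) and low-light replicate 3 (13). In a fit of the 2 groups alone it was 6.

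High salt at low light gave no call among the 179 members with limma (background 0.565%), and 11 were under an unadjusted p of 0.05. The interaction of light and high salt gave none either (background 0.206%), with 15 under an unadjusted p of 0.05. In 4 members (2.23%, beside 2.43% of all loci) high salt moved the libraries opposite ways at the 2 light levels without overlap. Annexin D3 had the interaction closest to the threshold, with 13.3 and 21.7 at low light with high salt against 24.7 to 54.5 without. Its change with high salt was thus -0.96 at low light and 1.43 at normal light, an interaction of -2.39 (SE 0.51, adjusted p = 0.088). The annexin transcripts alone gave -2.58 (adjusted p = 0.052). Low light among high-salt plants gave no call (background 0.584%), with 18 under an unadjusted p of 0.05. The group with both treatments has 2 libraries, and the absence of calls does not show that the changes were alike.

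Both treatments together, against check at normal light, gave 11 rises and 4 falls (8.38%, against 8.63% of all loci, 6.59% higher and 2.03% lower). Most were named above, with CIPK5 at -3.10 (adjusted p = 0.012), MAP kinase 9 at -1.47 (adjusted p = 0.017), calmodulin-like protein 4 at 1.80 (adjusted p = 0.016), calmodulin g25993 at 1.26 (adjusted p = 0.017) and MAP kinase kinase 2 at -0.99 (adjusted p = 0.040). Of the 15, 3 were called in neither treatment alone. Glutamate receptor 2.6 (g17763) had 0.00, 0.278 and 0.995 in check and 3.00 and 4.41 with both (1.77, SE 0.36, adjusted p = 0.015). Its matching transcripts alone gave 1.12 and were not called (adjusted p = 0.053). CML13 at g83532 had 6.94, 6.99 and 9.59 and then 19.4 and 18 (1.17, SE 0.27, adjusted p = 0.025). CDPK17 (g17489) had 1.98, 4.77 and 3.10 and then 7.24 and 9.91 (1.2, SE 0.34, adjusted p = 0.047). None of these pairs of groups overlapped. The count fell to 0 without replicate 1 of low light with high salt, to 1 without its replicate 2, and to 3 and 6 without check replicates 1 and 3. After median-of-ratios scaling 2 rose and 11 fell (background 6.74%, with 2.44% higher and 4.3% lower). Of the rises given here, calmodulin-like protein 4, g25993, CML13 at g83532 and CDPK17 were then no longer called. MAP kinase 3 was among those that fell (-0.92, adjusted p = 0.017).

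Genes around the set were read in the same way. Of 32 other calcium transport and binding loci tested, 4 rose and 4 fell at low light and 1 rose with high salt, against 15.1% and 4.02% of all loci called. After median-of-ratios scaling 2 rose and 6 fell at low light, and none rose and 1 fell with high salt. With both treatments 3 rose and 1 fell as deposited, against 6.59% and 2.03% of all loci. The 2 loci named sodium/calcium exchanger NCL2 fell at low light. Locus g24973 had 32.7, 22.5 and 44.6 in check and 8.74, 3.86 and 1.96 at low light (-2.67, SE 0.41, adjusted p = 0.0028), and g81762 had 6.70, 8.34 and 9.91 and then 2.19, 0.567 and 0.0314 (-2.42, SE 0.38, adjusted p = 0.0029). CSC1-like protein RXW8 (g25543), of the OSCA family of stress-gated calcium channels, had 32.1, 34.5 and 47.4 in check and 19.9, 10.1 and 7.52 at low light (-1.62, SE 0.34, adjusted p = 0.0099). These 3 were also called after median-of-ratios scaling. Calcium permeable stress-gated cation channel 1 (g89224) was called higher with both treatments (2.2, SE 0.4, adjusted p = 0.0083, or 0.0079 after the scaling). It had 6.59 and 1.77 there, and 0.816 or less in every other library. The other calls at low light were IQ-domain proteins 31 and 14, CDPK-related kinase 3 and exchanger NCL1, which rose, and cation/calcium exchanger 1, which fell by 0.77 (g19687, adjusted p = 0.041). CDPK-related kinase 3 and exchanger NCL1 were not called after median-of-ratios scaling (adjusted p = 0.084 and 0.11).

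IQ-domain protein 31 (g17150), a calmodulin-binding protein, had 15.2, 17.8 and 15.8 in check, 35.0, 29.9 and 38.2 with high salt and 51.6, 28.3 and 42.8 at low light. It rose by 1.03 (adjusted p = 0.037) and 1.24 (adjusted p = 0.0054). After median-of-ratios scaling the low-light rise was called (adjusted p = 0.021) and the high-salt one was not (adjusted p = 0.081).

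Among 27 targets and partners tested, 1 rose with high salt and 3 rose at low light, and none fell, against 3.03% and 10.8% of all loci that rose. After median-of-ratios scaling 1 rose in each comparison. The one with high salt was respiratory burst oxidase B (g92222), of the NADPH oxidases that make superoxide, with 1.06, 1.39 and 1.52 in check and 9.17, 9.62 and 4.17 with high salt (1.83, SE 0.32, adjusted p = 0.022). At low light it had 2.80, 2.16 and 3.31. Kinase SAPK5 (g21968) rose at low light by 1.52 (adjusted p = 0.021), and was not called after median-of-ratios scaling (adjusted p = 0.095). The 2 loci named sodium/hydrogen exchanger 7, which is SOS1 in Arabidopsis, rose at low light. Locus g9263 had 5.73, 13.0 and 13.4 in check, 31.6, 20 and 33.2 with high salt and 32.0, 22.2 and 36.9 at low light (1.47 at low light, SE 0.41, adjusted p = 0.034). Locus g87056 had 0.658, 1.51 and 0.993 in check and 3.68, 6.87 and 4.14 at low light (1.5, SE 0.33, adjusted p = 0.011). Only g87056 was also called after median-of-ratios scaling (adjusted p = 0.028, against 0.098 for g9263).

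Of the 5 MAP kinase phosphatases, MKP1 (g14763), which switches MAP kinases off, had 20.2, 19.1 and 18 in check, 15.8, 11.2 and 21.1 with high salt and 61.6, 50.8 and 33.5 at low light. It rose at low light by 1.27 (SE 0.26, adjusted p = 0.0082), with an adjusted p of 0.052 after median-of-ratios scaling. DSP8 (g19104), a dual specificity phosphatase, had 19.0, 17.5 and 20.7 in check and 12.0, 8.28 and 10.2 at low light, and fell by 0.86 (SE 0.20, adjusted p = 0.018).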

How the data were processed

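The authors deposited one table of transcripts with annotation and a value per library. The signal values are of a unit that the file header does not name, and the deposited table gives no counts, so the depth is unknown and no counting interval can be given. The submitters' processing notes name Bowtie 0.12.2, HISAT2 2.0, StringTie 1.3.0 and a mouse genome build, with no role for any of them.

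Of 65536 lines, 4 broken lines and 3 loci at the breaks were left out. Transcript values were summed to 29560 loci, and 971 with a fungal best match were set aside. The table may be held only in part. The 14 libraries were grouped by their labels, and limma 3.58.1 in R 4.3.3 was fitted to log2(value + 1) over 5 group means, with trended and robust variances. Loci that reached 1 in 2 or more libraries entered (20371), p-values were adjusted by the Benjamini-Hochberg method over all of them, and the threshold was 0.05. The fit was tested on simulated data with normal noise and no shift common to all loci, so that test says nothing about the choice of scaling.

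The members, gene lists and tests were chosen with earlier results of these data known. Members named are, for each class, those called in a main comparison (up to 6) and the one with the highest mean. The rule also took those with the largest change with high salt and with low light. Of the latter, calmodulin-binding protein 60 A (g2220), plasma membrane-type ATPase 10 (g13718) and MAP kinase kinase 3 (g2601) are not described. None of these was called at low light as deposited, and in each the matching transcripts are the minority. Members named outside this rule were chosen after their values were seen. These include annexins D1 and D2, the loci named CIPK24, CIPK29 (except g15769), CIPK31 and CBL4, MAP kinase 6, and the loci called only after scaling or with both treatments. Alternatives were 2 other scalings, a pseudocount of 0.1, no filter or a filter of 5, fits of the compared groups alone, a replicate block, untrended variances, each library left out and, added after the data were seen, the matching transcripts alone.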

Additional observations from a re-analysis of the deposited data

Results flagged for a closer look

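In 4 of the 179 members tested (2.23%, beside 2.43% of all loci) high salt moved every library one way at normal light and the other way at low light. None of the 4 interactions passed the test with limma. The annexin D3 locus (g20499) at normal light had 7.59 to 11.8 in check and 17 to 35.1 with high salt. At low light it had 24.7 to 54.5 in check and 13.3 to 21.7 with high salt. The difference of the 2 changes was -2.39 (adjusted p = 0.088). The MAPKKK5 locus (g1) had 41.5 to 50.6 and then 65.0 to 85.3 at normal light, and 90.1 to 113 and then 83.3 to 85.3 at low light. Its difference was -0.97 (adjusted p = 0.19), and its kinase transcript is 3.31% of the locus. MAP kinase 1 (g18817) had a difference of -0.44 (adjusted p = 0.51), from 15.1 to 17.9 in check and 18.2 to 19.2 with high salt at normal light. Calmodulin-binding protein 60 B at g17762, with values of 2.41 or less in every library, went the other way, at 1.08 (adjusted p = 0.36). The low-light group with high salt has 2 libraries.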

How the results depend on the processing

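The number of members called with high salt at normal light was 6, and 2 when only the groups compared were fitted and 3 with the replicate block. For low light without added salt it was 21, and 6 when only the groups compared were fitted. Leaving out single libraries gave 0 to 8 members with high salt, 0 with low salt, 8 to 21 with low light and 0 to 18 with both treatments. It gave 0 to 1 for high salt at low light, the interaction, high against low salt, and low light among high-salt plants. Over the 42 called changes of named members, 38 were kept with equal library totals, 41 with a pseudocount of 0.1, 31 without a filter, 40 of 40 with the stricter filter, 31 with untrended variances, 32 with the block and 18 after median-of-ratios scaling. Fits of the compared groups alone kept 17. With the matching transcripts alone 34 were kept, 7 were lost and 1 reversed, the ATPase 3 locus at low light, from -1.08 to 0.62. The causes were not tested.

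Same-numbered libraries of different groups correlated between -0.169 and 0.145 in their deviations from the group means. These values give no sign that the replicate numbers pair them, but with so few libraries a group they cannot settle it. The block is given here only as a check. Depth, the unit and the scaling limit what can be read: changes of all loci together depend on the scaling, and sums over a locus mix transcripts of different names.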
